A study of Mus musculus with 2 samples.

Results

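The SOCS family of cytokine signalling inhibitors was examined in RNA sequencing of in vitro skewed Th1 cells. The family has 8 genes, Cish and Socs1 to Socs7, and all 8 were found by symbol among the 24421 genes listed. Th1 cells are helper T cells that make IFNγ, and here they were grown from naïve CD4 T cells of young adult mice on the C57BL/6J background with plate-bound antibodies to CD3 and CD28, IL-12, IL-2 and an antibody that blocks IL-4. The files hold 1 library from Chi3l1+/+ cells (WT Th1) and 1 library from Chi3l1-/- cells (KO Th1), so no difference between the genotypes has a replicate check and no test was possible (n = 1 each). Chi3l1 encodes chitinase 3-like 1, a secreted chitinase-like protein without chitin-cleaving activity. The day on which the sequenced cultures were harvested was not stated in the sources used here. The KO mice lack it in all cells, and it was not stated whether a library pooled animals.

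Cytokines that bind receptors of this class activate JAK kinases, which phosphorylate STAT transcription factors. SOCS proteins are the feedback brake on this route. Each carries an SH2 domain, which binds phosphorylated tyrosines, and a SOCS box, which recruits an elongin and cullin ubiquitin ligase. Cish, Socs1, Socs2 and Socs3 are classical cytokine-induced members in lymphocytes, whereas Socs4 to Socs7 are known mostly from growth factor and insulin receptor signalling. In T cells, SOCS1 is known as a brake on IFNγ and on the cytokines that share the common gamma chain.

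The unit of the deposited values was inferred. A value was read as the log2 of a normalized count plus 1, since after this is undone the low values lie at even steps, each the worth of 1 read. The normalized counts summed to 68448996 for WT Th1 and 60913079 for KO Th1. The targeted gene, listed as Chil1, went against the labels, with 1 rebuilt read in the library labelled WT Th1 and 103 in the library labelled KO Th1. The values are per gene, so the exons that gave these reads are not known. Every direction below follows the labels as given, and the libraries are called by their labels for this reason. Markers of T cells were high in both, with log2 values of the 5 genes Cd3d, Cd3e, Cd3g, Cd4 and Cd28 from 11.911 to 14.942. Their differences, KO minus WT, ran from -0.374 for Cd4 to -0.025 for Cd3d and Cd28, whose counting intervals include 0, and scaled to Actb, itself at -0.116, Cd3d, Cd3e and Cd28 would be above 0. The Th1 genes were present, with Tbx21, the master regulator of Th1 cells, at 13.980 in WT Th1 and 13.715 in KO Th1 and Ifng at 11.721 and 13.044. Of the other Th1 markers, Il12rb2 (0.445) and Eomes (0.374) were higher in KO Th1, and the chemokine receptor gene Cxcr3 was lower (-1.230, from 273 to 116 reads). The 5 Th2 markers summed to 5342 and 4154 normalized counts, with Gata3 at -0.638 and the other 4 higher in KO Th1 by sign. Of these, the counting intervals of Il5, Il13 and Ccr4 include 0, and Il4 had only 1 read in WT Th1 and 9 in KO Th1. The 2 CD8 markers summed to 812 and 807, with Cd8a at 0.598 and Cd8b1 at -0.473. Markers of other cells also differed between the libraries. The 5 B cell markers summed to 939 normalized counts in WT Th1 and 1731 in KO Th1 and were higher in KO Th1 for 5 of 5 genes. The 6 neutrophil markers summed to 58.9 and 4.79, with 5 of the 6 at 0 in KO Th1. The monocyte or macrophage markers summed to 529 and 461, mostly from Cd68, with Adgre1 at 0 in both libraries. Among them Lyz2 went from 34 reads in WT Th1 to 2 in KO Th1 and Cd14 from 12 to 0, while Csf1r went from 97 to 174. The dendritic cell markers summed to 73.6 and 122, with Itgax going from 44 reads to 5, Flt3 from 18 to 68 and Zbtb46 from 14 to 48. The NK cell markers summed to 27.1 and 52.1, with Klra8 going from 11 reads to 39, Ncr1 from 0 to 6 and Klrb1c from 17 to 9. The part of these cells in the SOCS values was not tested.

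The cytokine-induced members held nearly all SOCS transcripts in both libraries. Socs1, Cish, Socs2 and Socs3 together made up 98.5% of the family's normalized counts per kilobase in the library labelled WT Th1 and 98.0% in the library labelled KO Th1. The levels per kilobase spanned 542-fold from the highest member to the lowest in WT Th1 and 226-fold in KO Th1. As bulk libraries were measured, fewer cells with a transcript and less transcript per cell cannot be told apart.

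The order of the family by level was compared per length, as normalized counts per kilobase of the longest coding transcript. In WT Th1 Socs1 came first with 10846, followed by Cish with 7102, Socs2 with 6686 and Socs3 with 2625. Socs7 was next with 231, then Socs6 with 98.2, Socs5 with 72.4 and Socs4 with 20.03. Between Socs3 and Socs7 there was a gap of 11.4-fold, the largest between neighbours in the order. In KO Th1 Socs2 came first with 7481, Socs1 came next with 5947, ahead of Cish with 5188. Below them the order was the same, with Socs3 at 2544, Socs7 at 193, Socs6 at 105, Socs5 at 89.8 and Socs4 at 33.1. The gap between Socs3 and Socs7 was 13.2-fold.

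Neighbours in this order were close in several places. Cish was 1.06-fold above Socs2 in WT Th1, and Socs1 was 1.15-fold above Cish and Socs2 1.26-fold above Socs1 in KO Th1. Socs6 was 1.36-fold above Socs5 in WT Th1 and 1.17-fold in KO Th1. With 1 library per genotype there is no spread to set these gaps against, and the places depended on the transcript length used. With the mean length of the coding transcripts Socs2 came first in both libraries, and with the merged exon length Socs1 came first in both. In the lower group Socs6 was above Socs7 with the mean length, and Socs5 was above Socs6 with the merged exon length, in both libraries. Socs1, Cish, Socs2 and Socs3 stayed above the other 4 members under each of these lengths, and Socs4 was lowest under each.

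**Figure D1:**
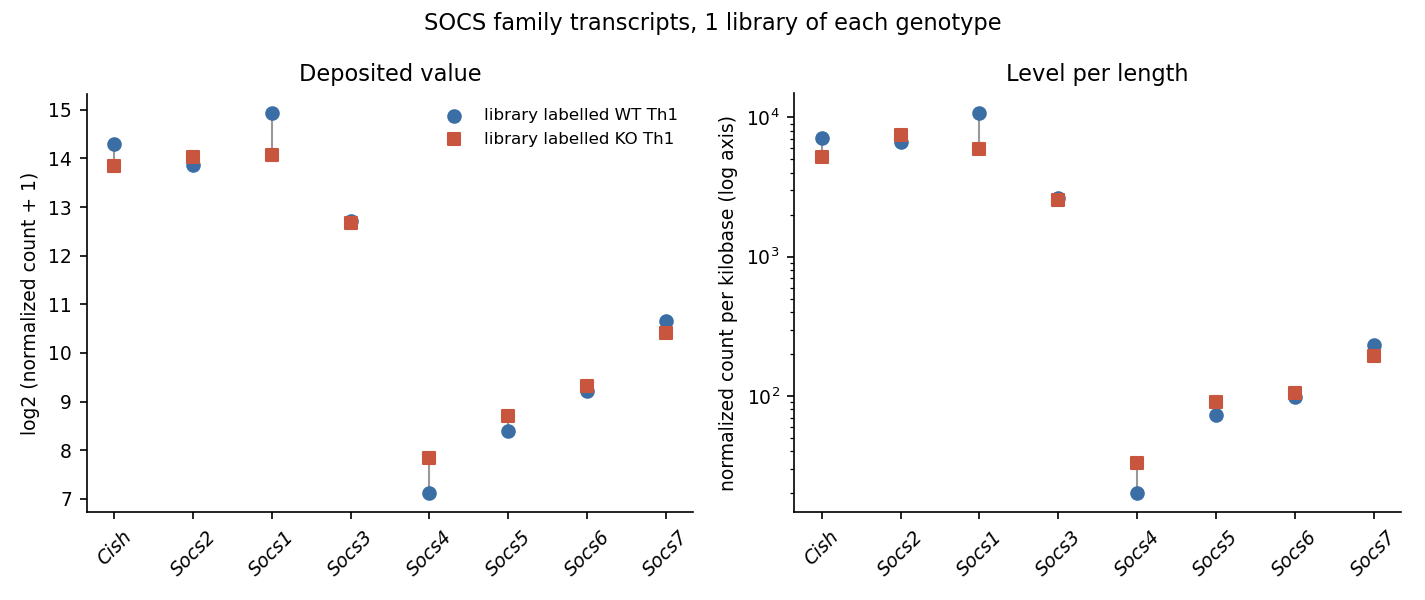
Left, the deposited log2 value of each SOCS family gene in the library labelled WT Th1 (circles) and the library labelled KO Th1 (squares). Right, normalized counts per kilobase on a log axis. Cish, Socs2, Socs1 and Socs3 lie between 2544 and 10846 per kilobase and the other 4 genes between 20.03 and 231 (1 library each).

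Promoter sequences of 4 members were at hand, for Socs1, Cish, Socs3 and Socs4, from RefSeq on GRCm38.p6. The 3 below are shown because these genes are the abundant, cytokine-induced members and each holds a motif of the route the family restrains. Each covers 250 bases before and 50 bases after the transcription start, 5′ to 3′ on the gene's strand. Capitals mark TTCNNNGAA, the core letters bound by STAT factors, in Cish and Socs3, and the core of the interferon response element, GAAA followed by any 2 bases and GAAA again, in Socs1. The sequence of Socs1 is chr16:10785487-10785786 on the minus strand, that of Cish chr9:107296409-107296708 on the plus strand and that of Socs3 chr11:117969317-117969616 on the minus strand.
Socs1: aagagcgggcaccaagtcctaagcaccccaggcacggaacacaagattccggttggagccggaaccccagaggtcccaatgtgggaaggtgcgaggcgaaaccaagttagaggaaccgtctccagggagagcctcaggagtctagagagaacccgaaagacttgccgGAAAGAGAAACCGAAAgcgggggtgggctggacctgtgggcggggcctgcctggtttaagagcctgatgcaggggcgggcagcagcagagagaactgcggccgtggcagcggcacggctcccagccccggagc
Cish: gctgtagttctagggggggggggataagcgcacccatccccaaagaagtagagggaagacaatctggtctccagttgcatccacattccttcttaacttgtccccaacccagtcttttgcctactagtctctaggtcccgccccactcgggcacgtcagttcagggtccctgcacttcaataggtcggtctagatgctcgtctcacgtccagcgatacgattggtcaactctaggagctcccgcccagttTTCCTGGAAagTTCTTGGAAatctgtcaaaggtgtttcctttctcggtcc
Socs3: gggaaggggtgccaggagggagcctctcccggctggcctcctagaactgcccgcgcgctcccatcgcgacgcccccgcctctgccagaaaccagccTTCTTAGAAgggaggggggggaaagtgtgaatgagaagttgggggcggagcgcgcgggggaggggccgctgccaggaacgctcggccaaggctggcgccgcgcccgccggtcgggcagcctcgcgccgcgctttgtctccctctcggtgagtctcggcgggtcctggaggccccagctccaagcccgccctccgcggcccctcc

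The Cish promoter held TTCNNNGAA at 2 places, as TTCCTGGAA and TTCTTGGAA, whose first bases are the base 1 and the base 12 from the start site. Of all 32851 promoters in the table, 8.3% held this motif and 0.457% held it at 2 or more places. The Socs3 promoter held it once, as TTCTTAGAA, starting at position -154 from the start site. The Socs1 promoter held the interferon response core at 2 overlapping places, as GAAAGAGAAA and GAAACCGAAA, which start at positions -83 and -77. Both strands were searched, and 3.44% of all promoters held this motif on either strand and 0.225% held it at 2 or more places. The Socs4 promoter held neither motif in these 300 bases. Positions count from the RefSeq start sites, and the GENCODE gene models of Cish and Socs3, whose coordinates are given below, begin upstream of the bases shown. These are matches of letters and not measured binding.

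Socs1 and Cish, the 2 most abundant members by deposited value in WT Th1, were both lower in the library labelled KO Th1. Socs4, the least abundant member, was the furthest in the other direction. Of the 8 deposited differences, 4 were above 0 and 4 below, counting Socs6 and Socs3 by sign although their counting intervals include 0, and the median difference was 0.026 on the log2 scale, beside 0.000 over all genes. No member reached 2-fold in either direction. In all genes listed, 4.7% were at least 2-fold higher and 5.81% at least 2-fold lower in KO Th1. Among the 13275 genes that reached log2 4 in either library, a filter that all 8 members passed, the shares were 3.59% and 4.75%. At 1.5-fold, 1 member was higher (Socs4) and 1 lower (Socs1), against 9.6% and 11.4% of all genes and 9.6% and 11.8% of those reaching log2 4. With the GC trend described below removed, neither gene was past 1.5-fold. The count of members past a threshold was thus near the background in each direction.

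Cish and Socs2 form one branch of the family. Cish encodes CIS, which binds the IL-2 receptor and is itself induced by STAT5. Its deposited log2 value was 14.305 in WT Th1 and 13.852 in KO Th1, with 20866 and 15267 rebuilt reads behind them. The log2 difference of -0.453 had a 95% exact binomial (Clopper-Pearson) interval from -0.483 to -0.423. These intervals, here and below, cover counting error only, since the reads carry no molecular identifiers and may not be independent. Cish lies at chr9:107296026-107302784 on the plus strand (GRCm38, as for the genes below), and its exons overlap those of 2 opposite-strand gene models that the files do not list, Gm17040 and Gm17041. Whether the authors counted by strand is not given in the sources used here, so reads of these models cannot be told apart from reads of Cish.

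Socs2, which restrains growth hormone signalling and is another STAT5-induced gene, did not follow Cish. It had 13.859 in WT Th1 and 14.021 in KO Th1, a log2 difference of 0.162 with an interval from 0.131 to 0.194. Socs2 lies at chr10:95385362-95417180 on the minus strand. The normalized count of Cish was 1.36 times that of Socs2 in WT Th1 and 0.889 times in KO Th1. This ratio is taken within a library and does not depend on the scaling between libraries. Its log2 differed by -0.615 between the libraries, and by -0.294 with the GC trend removed. The GC content of the Cish transcript was 8.83 percentage points above that of Socs2.

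Socs1 and Socs3 encode the members with a kinase inhibitory region, which blocks JAK catalytic activity directly. Socs1 had 14.945 in WT Th1 and 14.078 in KO Th1, with 32517 and 17856 rebuilt reads behind them. Its normalized count in KO Th1 was 0.548 of that in WT Th1, and the log2 difference of -0.867 had an interval from -0.893 to -0.841. Socs1 lies at chr16:10782240-10785536 on the minus strand. Socs1 made up 41.5% of the family's normalized counts in WT Th1 and 29.9% in KO Th1, while Socs2 went from 19.5% to 28.7%. The family as a whole summed to 76023 normalized counts in WT Th1 and 57829 in KO Th1, a log2 difference of -0.395. Over all genes the sum was also lower in KO Th1, with 60913079 against 68448996 in WT Th1. Socs1, Cish and Socs2 made up 87.7% of the family sum in WT Th1 and 84.2% in KO Th1. The difference of the family sum was not adjusted for level or GC content.

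Socs3, which acts mainly on receptors of the IL-6 family, was nearly level. It had 12.710 in WT Th1 and 12.665 in KO Th1, and its log2 difference of -0.045 had an interval from -0.0935 to 0.00384 that includes 0. Socs3 lies at chr11:117966079-117970047 on the minus strand. The normalized count of Socs1 was 4.71 times that of Socs3 in WT Th1 and 2.66 times in KO Th1. The log2 of this ratio differed by -0.822, with a 95% counting interval from -0.877 to -0.767 (normal approximation). The GC content of the longest coding transcript was 58.8% for Socs1 and 58.7% for Socs3, so this contrast compares transcripts of like base composition.

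Socs4 and Socs5 are close relatives with long amino-terminal regions and are linked to epidermal growth factor receptor turnover. Both were low and both were higher in KO Th1. Socs4 had 7.116 in WT Th1 and 7.836 in KO Th1, with only 142 and 235 rebuilt reads, and the log2 difference of 0.720 had an interval from 0.418 to 1.04. The few reads leave this interval the widest in the family, and it includes 2-fold. Socs5 had 8.399 and 8.709, a log2 difference of 0.310 with an interval from 0.103 to 0.519. Socs4 lies at chr14:47276931-47296102 and Socs5 at chr17:87107679-87137839, both on the plus strand.

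Socs6 and Socs7, which bind insulin receptor substrates and other adaptors, moved little. Socs6, on chromosome 18, had 9.214 in WT Th1 and 9.311 in KO Th1, a log2 difference of 0.097 with an interval from -0.0632 to 0.260 that includes 0. Socs7, at chr11:97362551-97398542 on the plus strand, had 10.661 and 10.405, a log2 difference of -0.256 with an interval from -0.360 to -0.153. In all, the counting interval left out 0 for 6 members and included it for Socs3 and Socs6.

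Each member was then set beside the 500 genes nearest to it in mean log2 value. Socs1 lay outside the 5th to 95th percentile of its neighbours, which ran from -0.626 to 0.318 around a median of -0.155. Erdr1 alone among these 500 genes was as low, with -1.243. Of the 200 nearest genes 0% differed as much as Socs1 in either direction, and of the 1000 nearest 0.9%. The other 7 members lay inside the range of their own neighbours. For Cish the range was -0.628 to 0.354, and 17.0% of neighbours differed as much in either direction. For Socs4 it was -0.979 to 0.975, and 21.6% differed as much. The share was 43.4% for Socs7, 50% for Socs5, 60.8% for Socs2, 82.4% for Socs6 and 90.4% for Socs3. These shares describe the 2 libraries and are not p-values.

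**Figure D2:**
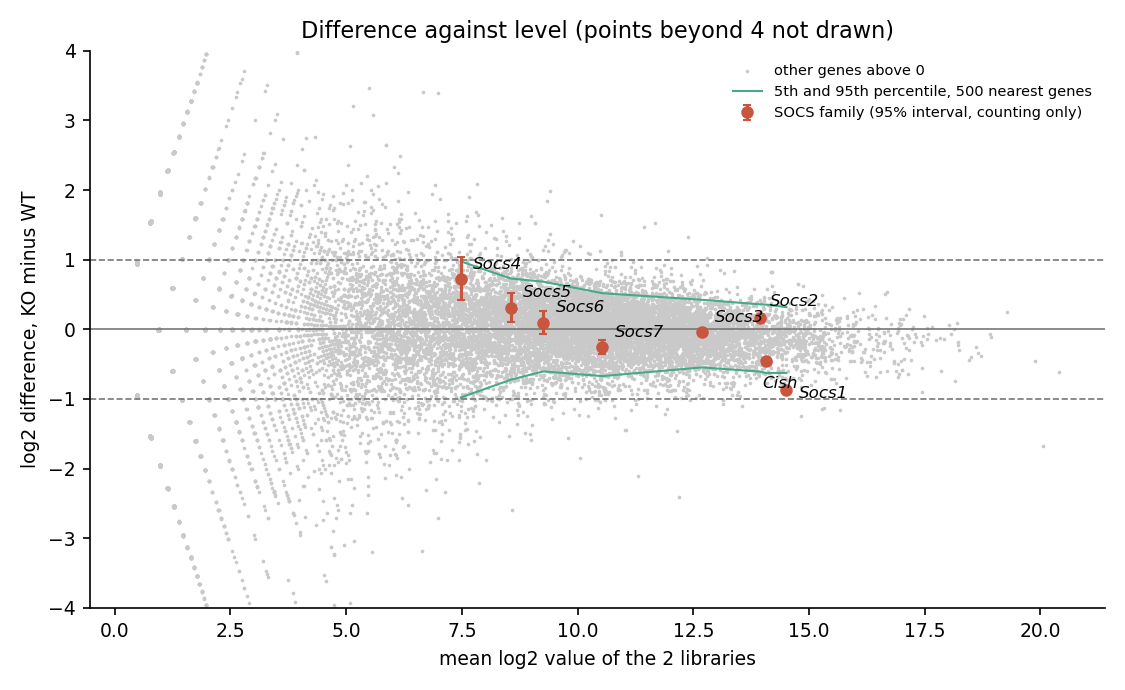
Log2 difference, KO minus WT, against the mean log2 value of the 2 libraries. Grey points are other genes, red points the SOCS family with 95% intervals for counting error only, green lines the 5th and 95th percentile of the 500 genes nearest to each member, and dashed lines 2-fold. Socs1 at -0.867 lies below the lower green line, which is at -0.626 there, and the other 7 genes lie between the green lines.

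The genes most like Socs1 in both values, by the Euclidean distance over the 2 log2 values, were Ciz1 at a distance of 0.094, Phc2 at 0.0984 and Sun2 at 0.110. Their differences were -0.770, -0.728 and -0.712. For Cish they were Impdh1 at 0.00781, Slc2a3 at 0.0305 and Llgl1 at 0.0356, with differences of -0.454, -0.469 and -0.503. With 2 libraries, this likeness holds only the level and 1 difference. Of these 6 genes, all but Slc2a3 (49.4%) had a transcript GC content of 57.45% or more.

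The members' differences moved with the base composition of their transcripts. The 4 members with a GC content over 50%, Socs1 (58.8%), Socs3 (58.7%), Cish (56.4%) and Socs7 (53.8%), had deposited differences below 0. The 4 under 50%, Socs5 (47.8%), Socs2 (47.5%), Socs6 (39.9%) and Socs4 (38.5%), had differences above 0. The signs of Socs3 and Socs6 are within counting error. Across the 8 genes, which share the same 2 libraries, Spearman's rho between GC content and difference was -0.833. The same direction was seen across genes at large. Over the 8581 genes at log2 8 or more in both libraries whose transcript was known, rho was -0.537. Of the 4537 genes over 50%, 70.6% were lower in KO Th1, and of the 4029 genes under 50%, 70.4% were higher. For the 6 members whose counting interval left out 0, the direction was that of most genes on the same side of 50%. Genes are not independent replicates, and what the trend comes from was not tested.

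**Figure D3:**
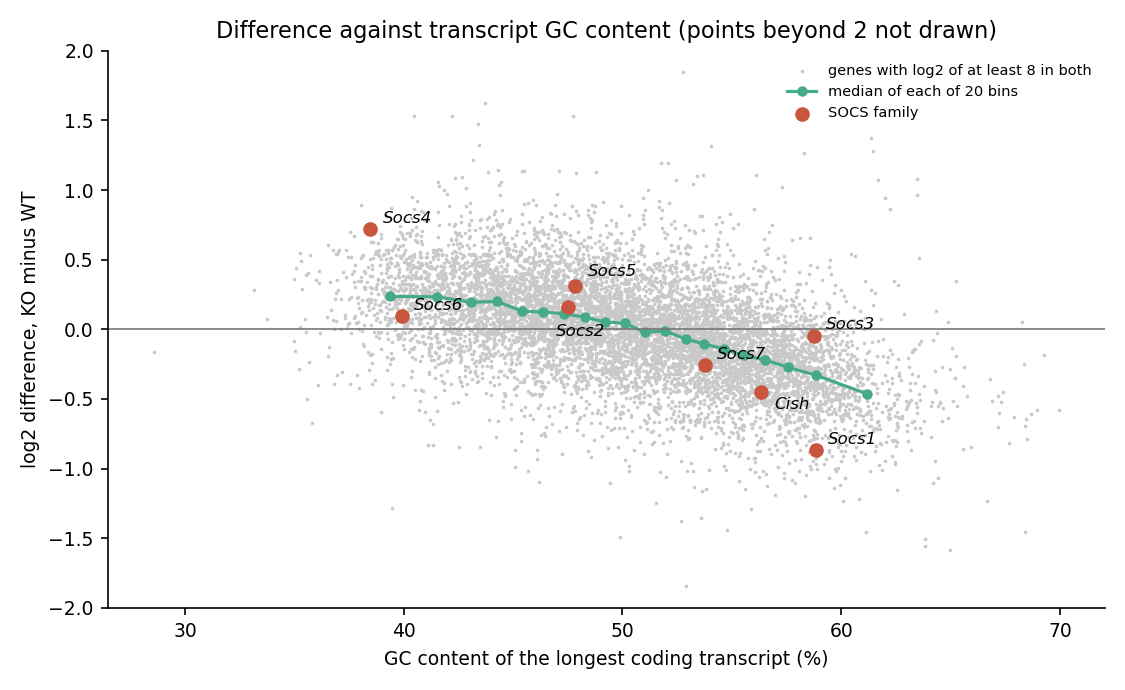
Log2 difference, KO minus WT, against the GC content of the longest coding transcript. Grey points are genes at log2 8 or more in both libraries, the green line joins the medians of 20 GC bins, and red points are the SOCS family. Socs1 and Socs3 share a GC content near 59% and lie on opposite sides of the green line, which falls from 0.236 to -0.463.

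The trend was estimated as the median difference in 20 bins of GC content, over genes at log2 8 or more in both libraries, and subtracted. Socs4 lies below that level in both libraries, so the 0.236 subtracted from it was carried over from genes with higher levels. Socs1 then had -0.538, Cish -0.239 and Socs7 -0.149, and these 3 genes remained lower in KO Th1. Socs3 went from -0.045 to 0.280, and Socs6 from 0.097 to -0.138. Socs4 had 0.484, Socs5 0.212 and Socs2 0.055. A narrower comparison used the 100 genes closest in GC content among the 500 nearest in level. None of the 100 such genes was as low as Socs1, where the median was -0.325 and the 5th percentile -0.713. Erdr1 had no known GC content and could not be among these 100 genes, so its difference of -1.243 was not counted. In the wider GC bin of Socs1, 429 genes at log2 8 or more in both libraries, the 5th percentile was -0.819. The deposited difference of Socs1 was -0.867. For Cish the median of the 100 genes was -0.220, and 21 of them differed as much. For Socs4 the median was 0.393 and 25 of the 100 were as high.

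Scaling changed the sizes more than the directions. Under 10 alternative settings Socs1 ranged from -0.874 to -0.522 and Cish from -0.460 to -0.234, lower in KO Th1 under all 10. Socs7 ranged from -0.277 to -0.115. Socs2 ranged from 0.055 to 0.303, Socs4 from 0.484 to 0.861 and Socs5 from 0.212 to 0.451, and these 3 were higher under all 10. Socs3 kept its direction under only 4 of the 10 and Socs6 under 8, so neither is called higher or lower. The pseudocounts and the scalings by 1 factor per library shift all members by nearly the same amount. They could not turn a difference larger than that shift, so a kept direction under them is no separate check. Of these settings, scaling to the total without the ribosomal RNA precursor Rn45s shifted the median of all genes above 0 in both libraries by 0.124 on the log2 scale, and the others by 0.0999 or less. Rn45s held 2.83% of all counts for WT Th1 and 1.0% for KO Th1. The totals with Rn45s included also differed, with 68448996 normalized counts in WT Th1 and 60913079 in KO Th1.

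**Figure D4:**
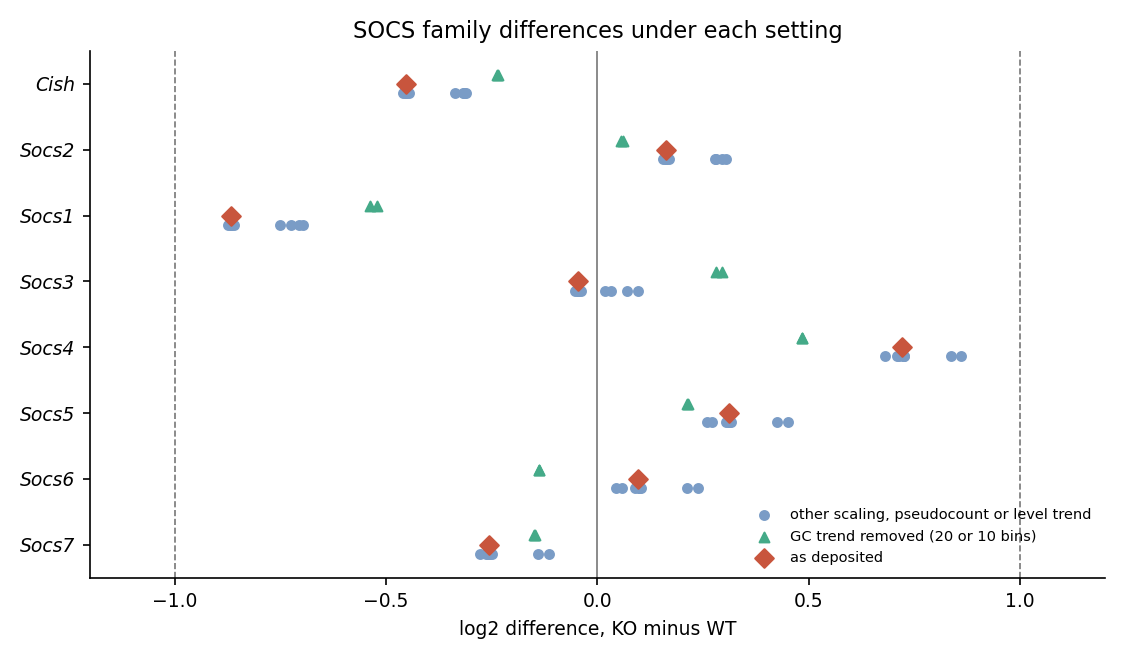
Log2 difference, KO minus WT, of each SOCS family gene as deposited (diamonds), with the GC trend removed (triangles) and under the other 8 settings (circles). Dashed lines mark 2-fold. Socs1, Cish and Socs7 stay below 0, Socs2, Socs4 and Socs5 stay above 0, and Socs3 and Socs6 lie on both sides.

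Genes of the same route were described from lists of 8 kinds. Their counts stand beside 4.7% of all genes at least 2-fold higher and 5.81% at least 2-fold lower. Of the SOCS box partners, which build the ubiquitin ligase, 0 of 6 reached 2-fold in either direction, and 5 were higher in KO Th1. They ran from -0.081 for Tceb2 (elongin B) to 0.488 for Rnf7, the RING subunit, with a median of 0.231 (0.106 with the GC trend removed). Of 15 other proteins with a SOCS box, 2 were past 2-fold, both from 0 reads in WT Th1. Spsb4 had 8 reads in KO Th1 and Rab40b had 7, which is 2.70-fold and 2.36-fold higher when WT Th1 is set to the floor of 3 reads per library. The lower limits of their counting intervals were 0.769 and 0.525 on the log2 scale, both under 2-fold. The median of the list was 0.022 (0.229 with the GC trend removed). Among its 13 members that reached log2 4, Asb3 was highest at 0.872 and Asb8 lowest at -0.177.

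The receptors and kinases on which SOCS proteins act did not reach 2-fold. Of 18 cytokine receptor genes, 0 were past 2-fold, 8 were higher and 10 lower, and the median was -0.051. Ifngr2, the signalling chain of the IFNγ receptor, was lowest with 10.192 in WT Th1 and 9.346 in KO Th1, a log2 difference of -0.846. Il2rb, the IL-2 receptor beta chain to which CIS binds, had -0.666 (-0.552 with the GC trend removed, under 1.5-fold) and was named after its value was seen, as the other receptor past 1.5-fold. Il10rb was highest at 0.483. Of the 4 JAK kinases, Jak3, the partner of the common gamma chain, was lowest with -0.449 (0.011 with the GC trend removed), Jak2 was highest with 0.064, and the median was -0.080 (-0.040 with that trend removed). The 6 STAT genes described here ran from -0.215 for Stat6, the factor of IL-4 signalling, to 0.240 for Stat2, with a median of 0.069 (0.033 with that trend removed).

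Among 13 other brakes on JAK and STAT signalling, 0 were past 2-fold and the median was 0.083 (0.0076 with the GC trend removed). Usp18, which damps type I interferon receptor signalling, was highest at 0.945, with 10.169 in WT Th1 and 11.114 in KO Th1. Pias4, an inhibitor of STAT-driven transcription, was lowest at -0.505 (-0.063 with the GC trend removed). Ptpn2, a phosphatase of JAK1 and JAK3, had 0.645 (0.409 with the GC trend removed, under 1.5-fold) and was named after its value was seen, as the other brake past 1.5-fold. Usp18 and Ptpn2 differed in the direction opposite to Socs1, but of the 13 brakes 7 were higher and 6 lower in KO Th1.

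Known targets of the STAT factors showed no common direction. Of 9 STAT5-induced genes, 4 were higher and 5 lower, with Il2ra highest at 0.246 (0.053 with the GC trend removed) and Pim2, a survival kinase, lowest at -0.480. Their median was -0.113, and 0.0088 with that trend removed. Of 17 genes induced by IFNγ, 10 were higher and 7 lower, with a median of 0.056 (-0.032 with that trend removed). The chemokine Cxcl9 was highest at 0.918, and Ciita, the activator of MHC class II genes, was lowest at -0.891. Cxcl10 (0.619, and 0.573 with that trend removed, under 1.5-fold) was the other member past 1.5-fold and was named after its value was seen. None of these genes reached 2-fold. Il2ra is on 2 of the lists.

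**Figure D5:**
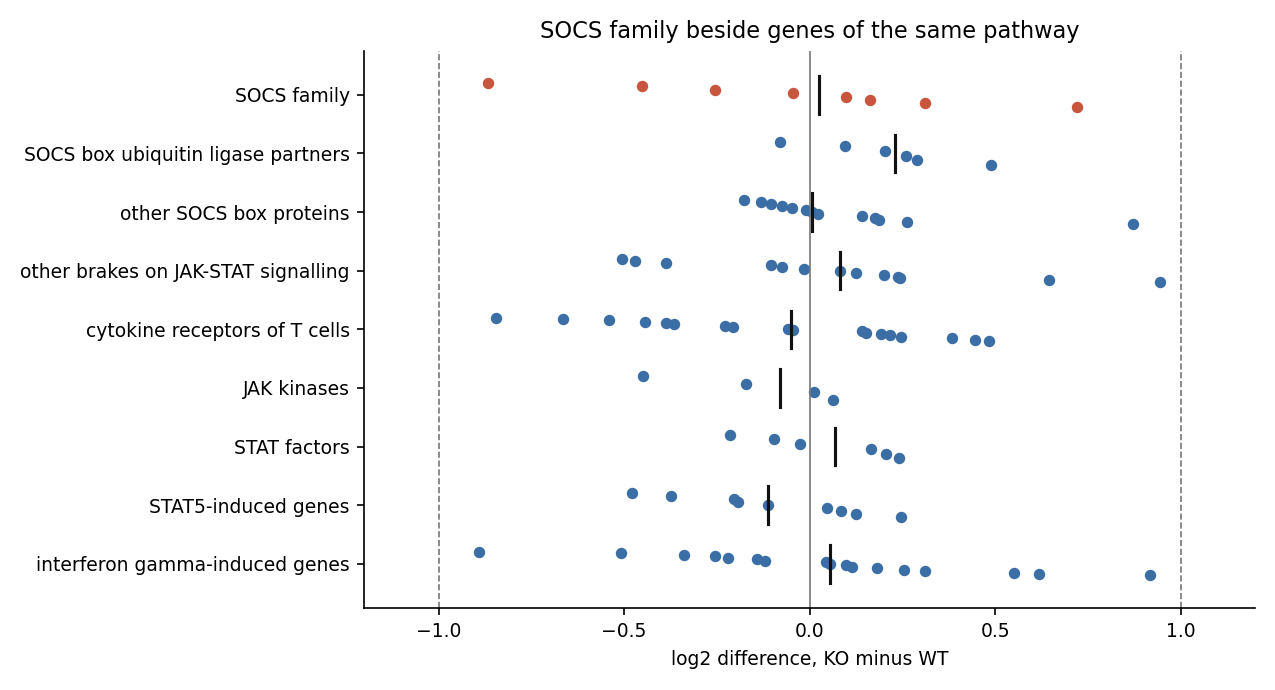
Log2 difference, KO minus WT, for genes of each list that reached log2 4 in either library. Each point is 1 gene, black ticks are the medians of the points and dashed lines mark 2-fold. The SOCS family spans -0.867 to 0.720, and no plotted gene reaches 2-fold.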

How the data were processed

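Polyadenylated RNA of 1 WT Th1 and 1 Chi3l1 KO Th1 sample was selected, and the library fragments made from it were sequenced from both ends. The authors mapped reads with TopHat, used edgeR on counts from uniquely and multiply aligned reads and applied a global normalization, and the labels name mm10. The annotation is not given in the sources used here. The deposited log2 values were taken as the log2 of a normalized count plus 1, not per length. Reads were rebuilt from steps of 0.970 in WT Th1 and 0.969 in KO Th1, and 100% of back-transformed values under 30 lay within 0.1 of a whole read. Rebuilt reads summed to 70566041 and 62894673. Reads with several alignments may be counted more than once. Differences are KO minus WT of the deposited values. Transcript length and GC content came from GENCODE M21 (GRCm38) and covered 95.7% of symbols. Promoters came from RefSeq (GRCm38.p6).

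The members and lists were chosen with earlier results of these data known. A gene of these lists is not reported here and was left out of their counts. The named genes are the 8 members, Chil1, in each list the members past 2-fold that reach log2 4 in either library and, among those reaching it, those with the highest and lowest difference, and the 3 genes nearest to Socs1 and to Cish. Scripts were tested on simulated data. The scripts ran in Python 3.11.15 with pandas 2.3.3, numpy 2.4.6, matplotlib 3.10.9 and scipy 1.17.1.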

Additional observations from a re-analysis of the deposited data

How the results depend on the processing

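The log2 difference of Socs1 was -0.867 as deposited. It was -0.697 after quantile normalization, -0.751 scaled to Actb, -0.726 scaled to the total without Rn45s, -0.707 with the trend with level removed, and -0.538 or -0.522 with the GC trend removed in 20 or 10 bins. The cause was not tested. The other 4 settings moved it by less than its counting interval. The median of the family was 0.026 and lay between -0.041 and 0.167 under the 10 settings, below 0 only with the GC trend removed. No member reached 2-fold under any setting, and at 1.5-fold 1 was higher and 1 lower as deposited. Both fell under 1.5-fold with the GC trend removed, where Socs4 had 0.484. Of the pathway genes, 2 were at least 2-fold higher, both with fewer than 9 reads, and 0 were among genes at log2 8 or more in both libraries. At 1.5-fold, 7 were higher and 3 lower, from lists of 6, 15, 4, 6, 18, 13, 9 and 17 genes. Of all genes listed, 9.6% were higher and 11.4% lower at 1.5-fold. Over all genes, 1147 were higher and 1418 lower at 2-fold. These counts were 476 and 630 among genes reaching log2 4 in either library, and 41 and 66 at log2 8 or more in both, as fewer genes with few reads were counted. In the order per kilobase, 3 members in WT Th1 and 4 in KO Th1 kept their place with the mean transcript length, and 4 and 2 with the merged exon length. The comparison with genes of like level and GC content was chosen after seeing the data. No paired analysis was possible because each genotype has 1 library. The few reads of Socs4 and Socs5 limit their precision.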
